A study of Mus musculus with 14 samples.

Results

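Baseline translational efficiency was measured in control mouse embryonic fibroblasts by setting ribosome footprints against RNA of the same transcript. The control cells carried the scrambled hairpin labelled Scram, and 4 of the 14 libraries of the series are theirs, with 2 Ribo-seq and 2 RNA-seq libraries. The members are the 8646 transcripts listed in all 4 of these libraries, out of 19209 listed in at least 1 of them and 22453 in the series. The efficiency (TE) was taken as the log2 Ribo-seq RPKM minus the log2 RNA-seq RPKM within a replicate number, centred so that 0 is the median transcript of that replicate. RPKM is a read count divided by the length counted over and by the depth of the library.

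The series holds C57BL/6J embryonic fibroblasts with the scrambled hairpin, with a hairpin against METTL3, the methyltransferase that writes m6A on mRNA, or ABCF1, a ribosome-associated ATPase (2 replicates per assay each), or treated with the mTOR inhibitor Torin1 at 250 nM for 2 h (1 library per assay). Cells grew in DMEM with 10% fetal bovine serum, and were washed and lysed with cycloheximide at 100 µg per ml, which holds ribosomes on the mRNA. Footprints of 25 to 35 nt and RNA fragments of 40 to 60 nt were cut from gels, and the RNA is labelled as total RNA after removal of ribosomal RNA. The labels name DMSO as the vehicle without saying whether the Scram cells received it, and do not tell how the replicates were grown; if they came from a single culture, every p-value here reflects library-to-library spread alone.

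A footprint is the stretch of mRNA that a translating ribosome shields from nuclease. The footprints on a coding region, divided by the RNA of that gene, describe how densely an mRNA is occupied by ribosomes, which depends on how often ribosomes start and on how fast they move. TE does not measure protein output, and mRNAs that differ in abundance can have the same TE.

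The Scram libraries held 4778822 and 3855973 assigned footprint reads, and 1709204 and 3802703 RNA reads, in replicates 1 and 2. A member had a median of 159 and 133 footprint reads and of 65.2 and 92 RNA reads. Over both replicates 524 members had under 20 reads in an assay or, lacking a known length, no read count. Replicate 1 lists transcripts from 1 read up and often several per gene, while replicate 2 starts at 5 footprint or 4 RNA reads with about 1 per gene. For 558 members the listed transcript carried under 50% of its gene's RPKM in a replicate 1 library. All 10 fibroblast markers were listed in all 4 libraries, with a summed RPKM of 3592 to 11788. None of the 6 blood cell markers was listed in all 4 and 5 were in none. Krt8, Krt14 and Krt18 of the 6 epithelial markers were listed in all 4, with a summed RPKM of 70.1 to 219 for that list. Kdr of 4 endothelial, Map2 of 4 neural and Nanog of 4 pluripotent cell markers were also listed in all 4, at 0.59 to 3.95 RPKM. No skeletal muscle marker was listed in all 4.

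TE spanned a wide range, and the order of transcripts was broadly shared by the replicates. The middle 90% of transcripts lay between -2.79 and 2.52 in replicate 1 and between -2.21 and 1.86 in replicate 2. Across the 8646 transcripts, which are not independent replicates, Pearson's r between replicates was 0.74, and over the 4434 transcripts with at least 50 reads in each library it was 0.86. TE was above the median transcript in both replicates for 3438 transcripts (39.8%), below it in both for 3438 (39.8%), and of opposite sign for 1770.

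With limma over the 2 TE values per transcript and Benjamini-Hochberg adjustment over all members, 1540 transcripts (17.8%) were above the median transcript and 1465 (16.9%) below it at an adjusted p under 0.05. These 3005 calls are 34.8% of the members. The 17.8% called above and the 16.9% called below are the shares over all members, for comparison with the counts of gene groups given here. These shares differ strongly by coding length. In the shortest of 20 equal groups by coding length 77.3% were called above and 0.464% below, and in the longest 0% and 89.1%. Counts of gene groups with short or long coding regions are therefore not comparable with the shares over all members alone. Without the pairing by replicate number 186 were above and 151 below, and without centring, where the median ratio is 0.92 and 1.68 in replicates 1 and 2, 3865 were above and 159 below. With replicate 2 alone, and the spread of the knockdown pairs, limma called 0 transcripts (1001 above and 1102 below at an unadjusted p under 0.05), so no call held on replicate 2 alone; with replicate 1 alone 468 and 491 were called.

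**Figure D1:**
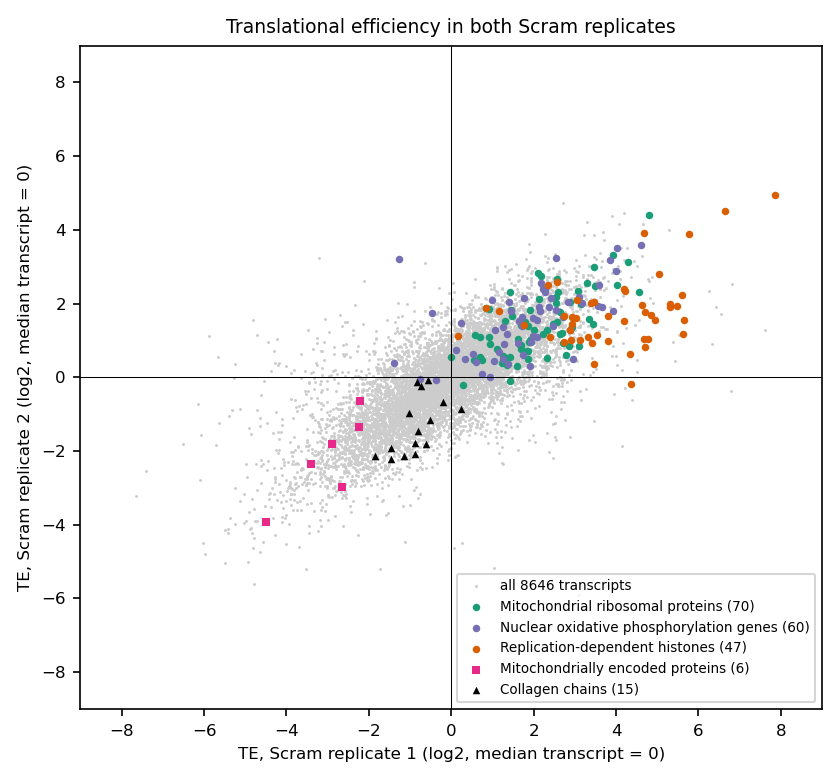
TE of each member in Scram replicate 1 (x axis) and replicate 2 (y axis), in log2 units with the median transcript at 0; grey points are all 8646 members and coloured points 5 gene groups. Histone and mitochondrial ribosomal protein mRNAs lie in the upper right, collagen and mitochondrially encoded mRNAs in the lower left, and 1 transcript, Tmem38b at -6.38 and -12.76, lies beyond the axes.

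The strongest pattern in TE was its fall with coding length. In the 862 members with the shortest coding regions (120 to 558 bases) the median TE was 1.85 and 1.35 in the replicates, and 70.3% were called above the median transcript. In the 862 with the longest (3633 to 23154 bases) it was -2.26 and -1.82, with 80.0% called below and 0 of 862 above. Spearman's rho between TE and coding length was -0.75 and -0.74 across the 8620 members with a known coding length. Both assays enter TE through a length, coding length for footprints and transcript length for RNA, and the assays behaved differently with it: rho was -0.54 and -0.53 for Ribo-seq RPKM and -0.09 and -0.17 for RNA-seq RPKM. The ratio of reads with no division by length gave -0.55 and -0.49. The same fall was present in library pairs that the Scram values did not use, with rho of -0.76 and -0.71 in METTL3 knockdown, -0.76 and -0.70 in ABCF1 knockdown and -0.64 in Torin1.

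**Figure D2:**
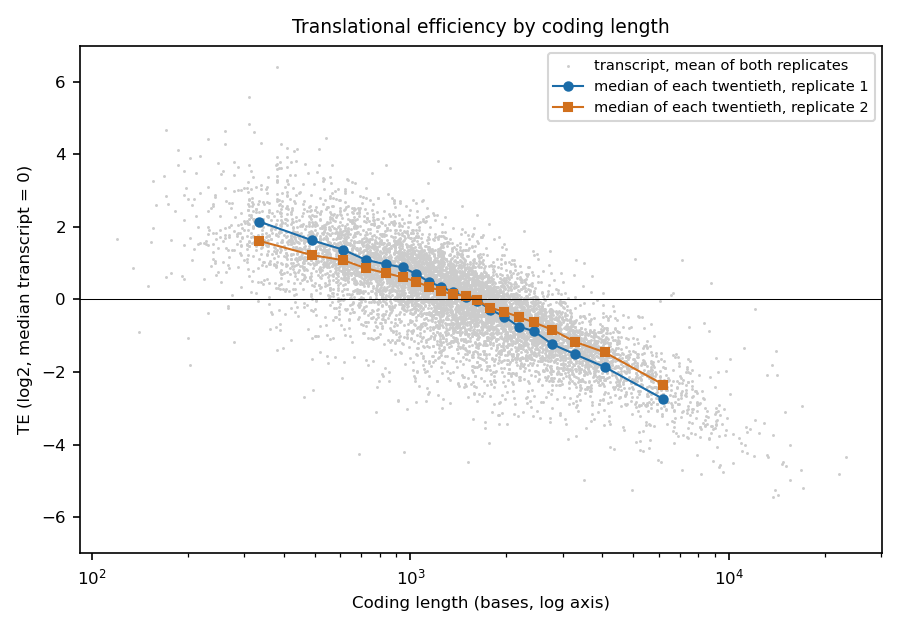
TE against coding length in bases (log axis); grey points are transcripts at the mean of both replicates and the joined symbols are medians of 20 groups of equal size in each replicate. The medians run from 2.14 and 1.61 in the shortest group to -2.75 and -2.35 in the longest, and 1 transcript lies below the y axis.

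Because of this pattern TE was also centred within 20 groups of coding length, called length-centred TE; this measure was added after the data were seen. Centring left a narrower range (SD 1.11 and 0.85, against 1.64 and 1.27) and a lower r between replicates, 0.44. Of 8620 transcripts, 36 (0.418%) were then called above and 65 (0.754%) below, together 101 or 1.17%, with 1605 of either sign at an unadjusted p under 0.05. Of these, 35 were among the 1540 called above on plain TE and 51 among the 1465 called below. In 22 of the 32 gene lists used limma called 0 members on length-centred TE. The longest of the 20 groups spans 4872 to 23154 bases, so differences in length remain inside it.

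The 12 members with the highest TE, ranked by the lower of their absolute replicate values, encode histones, metallothioneins, small mitochondrial proteins and RNA-binding proteins. Hist1h2be, an H2B histone (GRCm38 chromosome 13, 23583670 to 23621124, minus strand), had 2413 and 385 footprint RPKM against 5.53 and 3.89 RNA RPKM, so its TE was 7.85 and 4.94 (SE 0.55, limma adjusted p = 7.38e-05). Its RNA values rest on only 24 and 37 reads. The H4 gene Hist4h4 (chromosome 6, 136801553 to 136804415, minus strand) had 4216 and 3373 against 22.3 and 46.1, a TE of 6.65 and 4.51. Footprint levels exceeded RNA levels in both replicates for both genes, which follows from their choice by TE. Hist2h4 and Hist3h2a complete the histones of the 12, with TE of 5.76 and 3.90 and of 4.67 and 3.90. These 4 have 312 to 393 coding bases in annotated transcripts of 1630 to 2863 bases, and RNA reads are divided by the whole transcript. By the ratio of reads without length Hist1h2be stood at 4.77, Hist4h4 at 3.47, Hist2h4 at 3.54 and Hist3h2a at 2.93, each lower than its mean TE. Histone genes have near-identical copies, and it is not known how reads that fit several copies were assigned, which leaves values of single histone genes uncertain.

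Mt1 and Mt2, which encode metal-binding metallothioneins, had similar TE in both replicates although their RNA was abundant. Mt2 (chromosome 8, 94172664 to 94173568, plus strand) had 1901 and 4276 footprint RPKM and 60.0 and 74.7 RNA RPKM, a TE of 4.07 and 4.16 (SE 0.40, limma adjusted p = 0.000109). Mt1, its neighbour at 94179082 to 94180327, had 2435 and 5754 against 98.6 and 137, a TE of 3.71 in each replicate. Their coding regions are 186 bases long, and length-centred they stayed positive, at 1.93 and 2.54 for Mt2 and 1.57 and 2.10 for Mt1, and missed the threshold (limma adjusted p = 0.0521 and 0.0853).

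Further members of the 12 highest have a short coding region in a long annotated transcript, and their RNA reads are divided by that whole length. Serbp1, an mRNA-binding protein, has 1224 coding bases of 15474 and a TE of 3.68 and 3.95, with 854 and 1041 footprint RPKM against 35.4 and 20.95 RNA RPKM. As a ratio of reads without length it stood at 1.25, and Timm17a, a subunit of the inner mitochondrial membrane translocase with 516 coding bases of 7280, had a mean TE of 4.14 and stood at 1.41 by that ratio. Sf3b5, a splicing factor subunit, is listed with 43 upstream ATGs in its annotated leader and had a TE of 5.29 and 3.98. Mrpl33 is represented by a transcript annotated for nonsense-mediated decay that held 11.9% of the gene's RNA RPKM in replicate 1, with a TE of 4.80 and 4.41. Slirp, an RNA-binding protein of mitochondria, had 4.19 and 4.44, and Minos1, a subunit of the complex that shapes mitochondrial cristae, had 4.66 and 4.16.

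**Figure D3:**
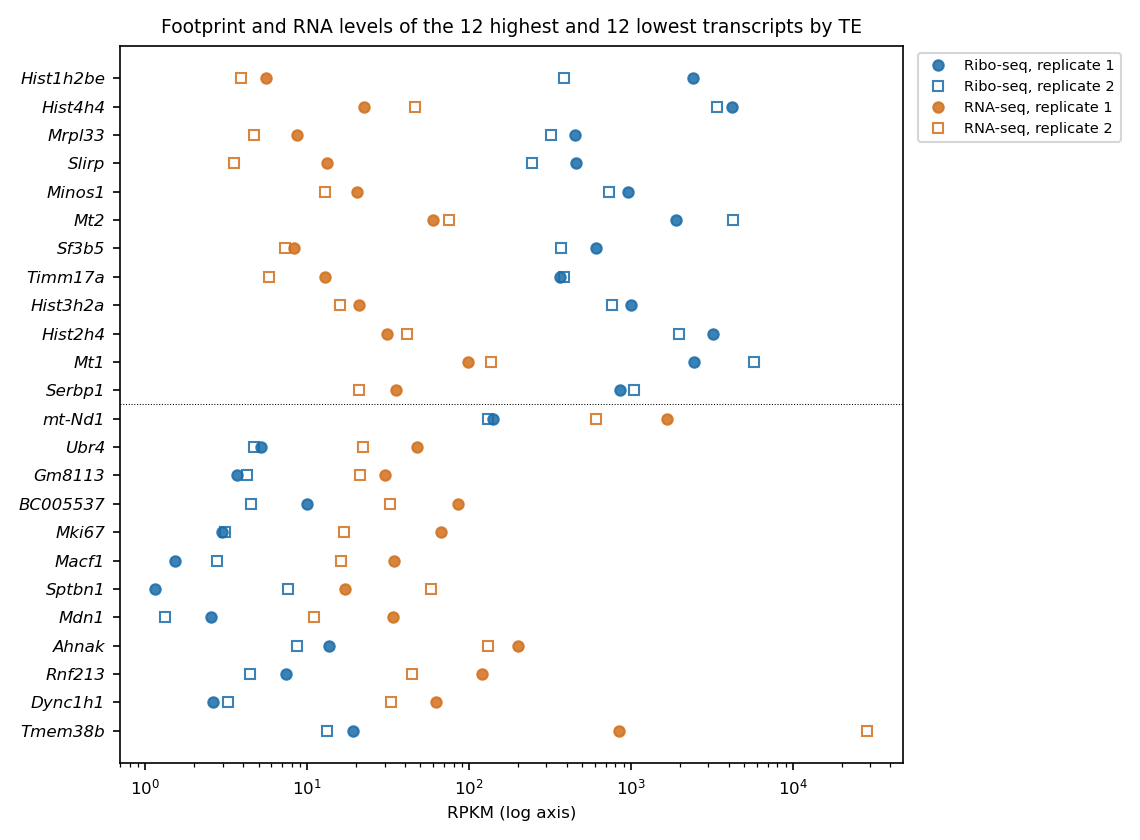
RPKM (log axis) of the 12 transcripts with the highest TE (above the dotted line) and the 12 with the lowest (below it); blue is Ribo-seq, orange RNA-seq, filled circles replicate 1 and open squares replicate 2. In each of the 24 both footprint values lie on one side of both RNA values, to the right in the upper 12 and to the left in the lower 12. The 24 were chosen by the ratio of these same values, so this separation follows largely from the choice.

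The 12 lowest are mostly mRNAs of giant proteins. Dync1h1, the heavy chain of the dynein motor (chromosome 12, 110601452 to 110666945, plus strand), had 2.61 and 3.24 footprint RPKM against 62.4 and 32.9 RNA RPKM, a TE of -5.49 and -5.03 (SE 0.41, adjusted p = 5.34e-05). Ahnak, a giant scaffold protein (chromosome 19, 8989284 to 9019196, plus strand), had 13.6 and 8.60 against 200 and 131, a TE of -4.80 and -5.61. Their coding regions span 13935 and 16971 bases. The ubiquitin ligases Rnf213 (-4.94 and -5.00) and Ubr4 (-4.12 and -3.92), the ribosome assembly ATPase Mdn1 (-4.64 and -4.74), the cytoskeletal linker Macf1 (-5.41 and -4.22), the spectrin Sptbn1 (-4.80 and -4.63) and the proliferation antigen Mki67 (-5.41 and -4.13) were called below too. Length-centred, Dync1h1, Rnf213, Ahnak and Sptbn1 were still called below, while Mdn1, Macf1, Mki67 and Ubr4 were not. The Sptbn1 transcript held 16.8% of its gene's RNA RPKM in replicate 1.

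The other 4 of the lowest have coding regions of 690 to 1764 bases. Tmem38b, a cation channel of the endoplasmic reticulum (chromosome 4, 53826045 to 53862019, plus strand), had 19.0 and 13.3 footprint RPKM against 841 and 28703 RNA RPKM, a TE of -6.38 and -12.76. It took 0.241% and 8.22% of the assigned RNA reads in replicates 1 and 2, so the replicates are far apart in its RNA. BC005537 has 19 upstream ATGs and a coding region of 690 bases, and had 10.0 and 4.51 against 84.9 and 32.2, a mean TE of -4.26 (SE 0.39). Gm8113 had -3.95 and -3.99. The footprint values of BC005537 rest on only 33 and 12 reads and those of Gm8113 on 31 and 29. The mitochondrially encoded mt-Nd1, a complex I subunit, had 140 and 130 against 1659 and 609, a TE of -4.49 and -3.91. All of these remained below when centred by length (limma, adjusted p = 0.0262, 0.00669, 0.0181 and 0.0180 in that order).

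Start-codon contexts of members at both ends of the range are shown because the bases around the start codon are known to affect initiation. They are 9 bases before to 3 after the start codon, in capitals, read from the GENCODE M21 transcripts on GRCm38.
Mt2: ccactcgccATGgac
Mt1: gatctcggaATGgac
Serbp1: gccaccatcATGcct
Hist4h4: tttactaatATGtca
Timm17a: ggagccaagATGgag
Dync1h1: ggatccgccATGtcg
Ahnak: cctgcaaagATGgag
BC005537: tatttcaaaATGggg
Tmem38b: gtagtcgtcATGgag
Fth1: gccgccaccATGacc
Ftl1: ggatcagccATGacc
Pabpc1: cgtgccgagATGaac
Atf4: ccccacaacATGacc
A purine stands 3 bases before the ATG in each of these 13, in high and low members alike. The 13 are a choice: of other contexts read, Oaz1 and Mdm2 have C at this position and Jun has T. Most members have the purine (3968 and 3403 with it, 602 and 509 without). Its presence therefore does not set these 13 apart. Over all members with a known context, the 3968 with a purine at -3 and G at +4 had a median TE of 0.07 in each replicate. With the purine alone (3403) it was -0.03 and 0.01, with the G alone (602) -0.11 and -0.21, and with neither (509) -0.11 and -0.12. In that order, 19.6%, 17.98%, 11.0% and 12.4% were called above, against 17.8% of all members, and 15.1%, 17.3%, 18.6% and 19.1% below, against 16.9%.

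Upstream ATGs, which can start short open reading frames ahead of the main one, went with lower TE. Members with none in the annotated leader (4356 of 8488) had a median TE of 0.36 and 0.26, those with 1 (1939) had -0.13 and -0.09, those with 2 (826) -0.36 and -0.33, and those with 3 or more (1367) -0.70 and -0.59. Their coding regions also lengthen, from a median of 1293 bases with none to 1713 with 3 or more. Length-centred the order was the same in both replicates and the steps smaller, from 0.13 and 0.08 to -0.34 and -0.21. Of the 65 transcripts called below on length-centred TE, 59 had an annotated leader and 28 of those (47.5%) had 3 or more upstream ATGs, against 16.1% of all members. Among the 36 called above, 6 (16.7%) had. The length of the leader gave rho of -0.18 and -0.15 with TE, and that of the 3' untranslated region -0.08 and 0.01. GC content of the coding region gave 0.20 in replicate 1 and 0.01 in replicate 2, so it differed by replicate.

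**Figure D4:**
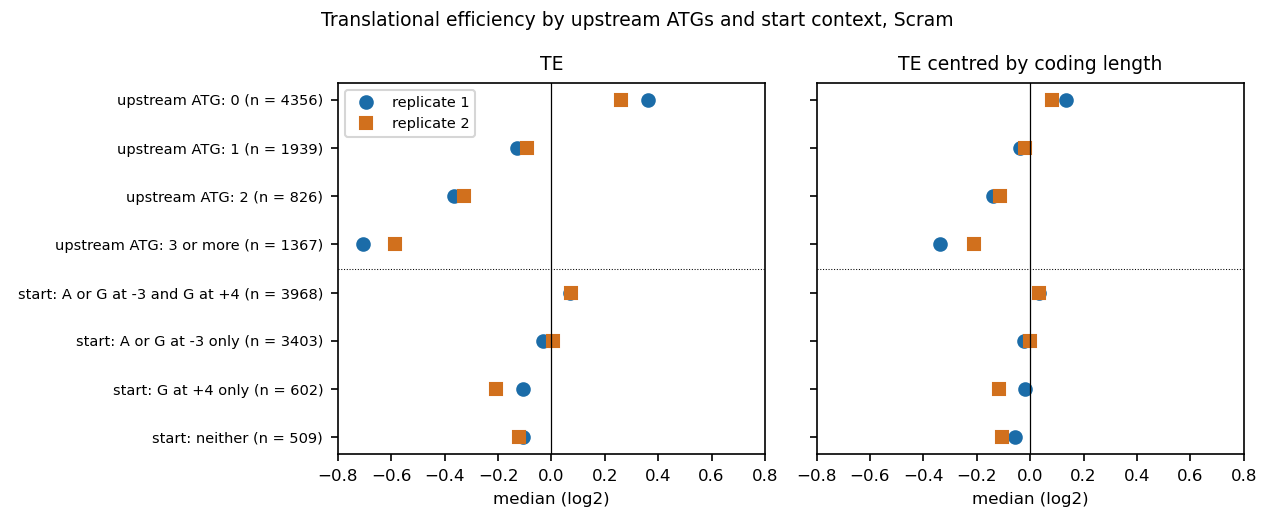
Median TE (left) and length-centred TE (right), in log2 units, of members grouped by the number of upstream ATGs (above the dotted line) and by start context (below it), in replicate 1 (circles) and replicate 2 (squares). In both panels and both replicates the medians step down from no upstream ATG to 3 or more, while those of the start contexts run from 0.07 to -0.21 on TE.

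Among the lowest members by length-centred TE were several with many upstream ATGs. Slc35a4, known for a translated upstream frame, has 18 of them. It had 10.5 and 10.4 footprint RPKM against 39.5 and 29.8 RNA RPKM, a TE of -2.83 and -3.20 and a length-centred TE of -3.71 and -3.82 (SE 0.38 for TE, limma adjusted p = 0.000422 and, length-centred, 0.0181). Zfp664, a zinc finger gene with 11, had a length-centred TE of -3.25 and -3.26, and 2410002F23Rik, with 30, had -2.82 and -2.86. Others lack them: Ubald2 has 0 and stood at -3.42 and -4.44. Footprint reads were few, at 49 and 39 for Slc35a4, 37 and 24 for Zfp664, and 31 and 12 for Ubald2. In the other library pairs where each was listed, plain TE ran from -3.55 to -2.24 for Slc35a4 and from -3.71 to -0.73 for Ubald2.

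The list of stress genes known for regulation by upstream frames had 9 members and a median TE of -2.29 and -1.02. Of these, 5 were called below (55.6%, against 16.9% of all members) and 1 above (11.1%, against 17.8%). Length-centred, the list median was -0.58 and -0.54, with 1 called below and 0 above by limma. Atf4, a master activator of genes in the integrated stress response, has 3 upstream ATGs. It had 79.9 and 274 footprint RPKM against 207 and 147 RNA RPKM, a TE of -2.29 and -0.78 (SE 0.42, limma adjusted p = 0.0163). Its RNA exceeded its footprints in replicate 1 and not in replicate 2, and length-centred it was not called. Ddit3, which encodes the stress factor CHOP, had a TE of -0.98 and 0.11 and Ppp1r15b, a phosphatase subunit that acts on eIF2, of -0.85 and -1.02, and neither passed. Eprs, Ibtk and Eif2ak4, with coding regions of 4059 to 4947 bases, were below at -2.52 and -1.23, -2.45 and -2.33, and -2.51 and -2.31. Among the 862 members with the longest coding regions (3633 to 23154 bases) 80.0% were called below. Cebpb, a transcription factor, was the 1 of the stress list called above, at 3.05 and 0.78.

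The ferritin mRNAs, which carry an iron-responsive element in their leaders, were below the median transcript although their coding regions are short. Fth1, the ferritin heavy chain (chromosome 19, 9982646 to 9985098, plus strand), had 595 and 959 footprint RPKM against 1096 and 740 RNA RPKM, a TE of -1.80 and -1.31 (SE 0.44, limma adjusted p = 0.0185). Ftl1, the light chain, had 100 and 104 against 253 and 76.3, a TE of -2.25 and -1.23 (adjusted p = 0.00595). Length-centred both were lower still, at -3.43 and -2.53 and at -3.88 and -2.45, and called. Of the 9 members of the iron list 3 were called below, the third being Aco1, the cytosolic aconitase that binds these elements, and 0 above; Tfrc, the transferrin receptor, had 0.52 and 0.43 and did not pass.

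Mitochondrial proteins made in the cytosol had high TE. Of 70 listed mitochondrial ribosomal proteins (of 78 in the list) 67 were above the median transcript in both replicates, with a median of 1.90 and 1.28. Limma called 54 above (77.1%) and 0 below, against 17.8% above over all members and 54.8% of members with 558 to 666 coding bases. Nuclear genes of oxidative phosphorylation had 60 members of 77, 43 called above (71.7%) and 0 below, and a median of 1.92 and 1.59. Of members with 423 to 558 coding bases 63.3% were called above. These length groups hold the median coding lengths of the 2 lists, 597 and 438 bases. Ndufa11, a complex I subunit with 432 coding bases of 545, had 454 and 325 footprint RPKM against 9.89 and 8.40 RNA RPKM, a TE of 4.61 and 3.59 (SE 0.38, limma adjusted p = 0.000102). Its RNA values rest on only 9 and 17 reads, which leaves the size of its TE uncertain. Ndufv1, another complex I subunit, was lowest at -1.40 and 0.38. Length-centred, the medians were 0.71 and 0.19 for the ribosomal proteins and 0.36 and 0.39 for oxidative phosphorylation, still positive in both replicates, with 3 calls above in each list, and 0 and 1 below.

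mRNAs of the mitochondrial genome, translated by mitochondrial ribosomes inside the organelle, stood at the other end. All 6 listed of 13 were called below, with a median of -2.77 and -2.08, and 4 were still called length-centred. mt-Nd6 was the highest at -2.22 and -0.65 and mt-Nd1 the lowest. They took 0.658% and 0.308% of assigned RNA reads and 0.145% and 0.252% of assigned footprints in replicates 1 and 2; in RNA-seq of replicate 2 Lars2, which is no member, took 35.4% of the assigned reads. In the 5 other library pairs the median of the 6 ran from -3.81 to -1.55. Whether footprints of mitochondrial ribosomes were recovered as fully as those of cytosolic ones was not tested. The low TE of these 6 mRNAs therefore does not show that they were poorly translated.

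Histone mRNAs made in S phase were high as a group: of 47 listed (of 64) 46 were called above and 0 below, with a median of 3.82 and 1.64. The 46 are 97.9%, against 77.3% of members with 120 to 423 coding bases. They took 4.46% and 1.21% of assigned footprints against 0.429% and 0.331% of assigned RNA reads in replicates 1 and 2. Hist1h4c was the 1 not called, at 0.15 and 1.13. Length-centred the median was 2.04 in replicate 1 and 0.07 in replicate 2, with 4 called, so a level beyond that of other short mRNAs was present in replicate 1 and small in replicate 2.

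Cytosolic ribosomal protein mRNAs had moderately high TE, and length-centred medians slightly under 0. Of 33 listed large-subunit genes (of 47) 13 were called above (39.4%, against 17.8% of all members) and 0 below, with a median of 1.29 and 1.02. Of 26 small-subunit genes (of 33) 11 were called above (42.3%) and 0 below, with 1.27 and 0.89. The median coding lengths of the lists are 498 and 474 bases. Of members with 423 to 558 coding bases 63.3% were called above, a higher share than in either list. Rpl37 was the highest, with 3750 and 4815 footprint RPKM against 179 and 255 RNA RPKM and a TE of 3.48 and 2.56, and Rps20 had 2.38 and 2.95. Length-centred, the medians turned to -0.33 and -0.03 for the large and -0.10 and -0.28 for the small subunit, with 0 calls by limma in either. Ribosomal protein genes have many processed copies, which can take or share reads.

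Other mRNAs of the 5' terminal oligopyrimidine class, which begin with a pyrimidine tract that mTOR signalling acts on, were spread widely. Of 18 members 5 were called above (27.8%, against 17.8% of all members) and 1 below (5.56%, against 16.9%). Eef1b2, an elongation factor subunit, was the highest at 2.15 and 1.88 and Tpt1 was above at 1.84 and 0.93, though the listed Tpt1 transcript held 20.3% of the gene's RNA RPKM in replicate 1. Pabpc1, the cytoplasmic poly(A)-binding protein, was the 1 below: it had 154 and 243 footprint RPKM against 692 and 444 RNA RPKM, a TE of -3.09 and -2.55 (SE 0.40, limma adjusted p = 0.000592), and was also called length-centred. Eef1a1, with the most abundant footprints of these at 2313 and 9075 RPKM, had -0.75 and 0.12, and Eef2 had -1.22 and -0.98, and neither passed.

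Of 30 initiation factors and regulators, 16 were above the median transcript in both replicates and 10 below it in both. Eif1ax (1.90 and 3.39), Eif4e, the cap-binding protein (1.36 and 2.86), and Eif1 (2.03 and 1.78) were among 10 called above, and Eif3a (-2.09 and -1.41) and Eif4g3 (-2.97 and -1.04) were the 2 below. The 10 are 33.3% of the listed factors, against 17.8% of all members, and the 2 are 6.67%, against 16.9%. Length-centred, the list median was -0.06 and 0.09 and 1 member was called, Eif4ebp2, a repressor of Eif4e, at -2.57 and -2.80. Abcf1 itself had -1.21 and -0.66, and Mettl3 -0.42 and -0.23, and neither passed. Of 15 listed m6A writers, erasers and readers 4 were called below and 0 above, Zc3h13 lowest at -3.42 and -2.41 and Fto highest at 0.29 and 0.63; length-centred 0 were called by limma.

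Collagen mRNAs, long and abundant in fibroblasts, were below the median transcript on TE and mostly above 0 on length-centred TE. Of 15 listed chains (of 20) 14 were below in both replicates, with a median of -0.83 and -1.45. Limma called 8 below (53.3%, against 16.9% of all members) and 0 above. The median coding length of the list is 4743 bases, and of members with 3633 to 4863 coding bases 71.0% were called below. Col1a1, the main chain of type I collagen (chromosome 11, 94936224 to 94953042, plus strand), had 2643 and 1925 footprint RPKM against 1192 and 1089 RNA RPKM. Its TE of 0.23 and -0.86 changed sign between replicates, and Col12a1 was the lowest at -1.84 and -2.14. Length-centred the median was 1.32 and 0.26, and 13 of 15 were above 0 in both replicates against 32.2% of all members, with 0 called by limma. Collagens took 1.94% and 1.58% of assigned footprints and 1.63% and 1.48% of assigned RNA reads in replicates 1 and 2.

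Other secreted matrix proteins were split, with 7 of 23 called above (30.4%, against 17.8% of all members) and 5 below (21.7%, against 16.9%). The highest was Igfbp7 (2.33 and 1.36), and the small protease inhibitors Timp1, Timp2 and Timp3 were above. Fibronectin, Fn1, had 460 and 214 footprint RPKM against 1971 and 536 RNA RPKM, a TE of -3.01 in each replicate (SE 0.41, limma adjusted p = 0.000528), with a coding region of 7434 bases. Tenascin, Tnc, was lowest at -3.74 and -2.31. Length-centred none of the 23 was called by limma, Fn1 stood at -0.27 and -0.66, and the list median was 0.67 and 0.49. Sparc, a collagen-binding protein, had 1.50 and 1.11 and missed the threshold (adjusted p = 0.0560).

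Lysosomal mRNAs, which encode acid hydrolases and membrane proteins of that organelle, were high both before and after centring by length. Of 23 listed members (of 26) 9 were called above and 0 below, and the median was 0.96 and 0.92. Npc2, a cholesterol carrier, had 785 and 638 footprint RPKM against 49.3 and 27.3 RNA RPKM, a TE of 3.08 and 2.86 (SE 0.37, limma adjusted p = 0.000359). Ctsb, cathepsin B, had 1539 and 1402 against 133 and 59.2, a TE of 2.62 and 2.88. Length-centred, 19 of 23 were above 0 in both replicates against 32.2% of all members, with a median of 0.64 and 0.85, though 0 were called singly by limma. The chaperones of the endoplasmic reticulum had 5 of 14 called above, Manf highest at 3.16 and 2.34, and 1 below, Hyou1, listed at 0.14 footprint RPKM in replicate 1 and 101 in replicate 2. Length-centred, that list had a median of 0.54 and 0.42 and 0 calls by limma.

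Proteasome subunits were above the median transcript in 23 of 30 in both replicates, with 10 called above and 0 below and a median of 1.04 and 0.74; Psma3 was highest at 2.64 and 1.56 and Psmd1 lowest at -1.15 and -0.74. Length-centred, the proteasome median was 0.36 and 0.26 and 0 were called by limma. The 7 listed subunits of the chaperonin CCT, whose coding regions run from 1608 to 1671 bases, sat near the median transcript, between Cct3 at -0.94 and 0.01 and Cct7 at -0.06 and 0.41, with 0 called by limma. Among cytoskeletal genes Pfn1, profilin, was highest at 3.04 and 1.80. Actb, with 12629 and 9736 footprint RPKM against 2743 and 1922 RNA RPKM, had 1.29 and 0.66 and did not pass, while Gapdh, of glycolysis, passed at 2.19 and 1.22, from a transcript with 41.9% of its gene's RNA RPKM in replicate 1. Flna, filamin, was lowest at -4.92 and -3.66, from a listed transcript of 0.42 RNA RPKM in replicate 1 and 182 in replicate 2.

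**Figure D5:**
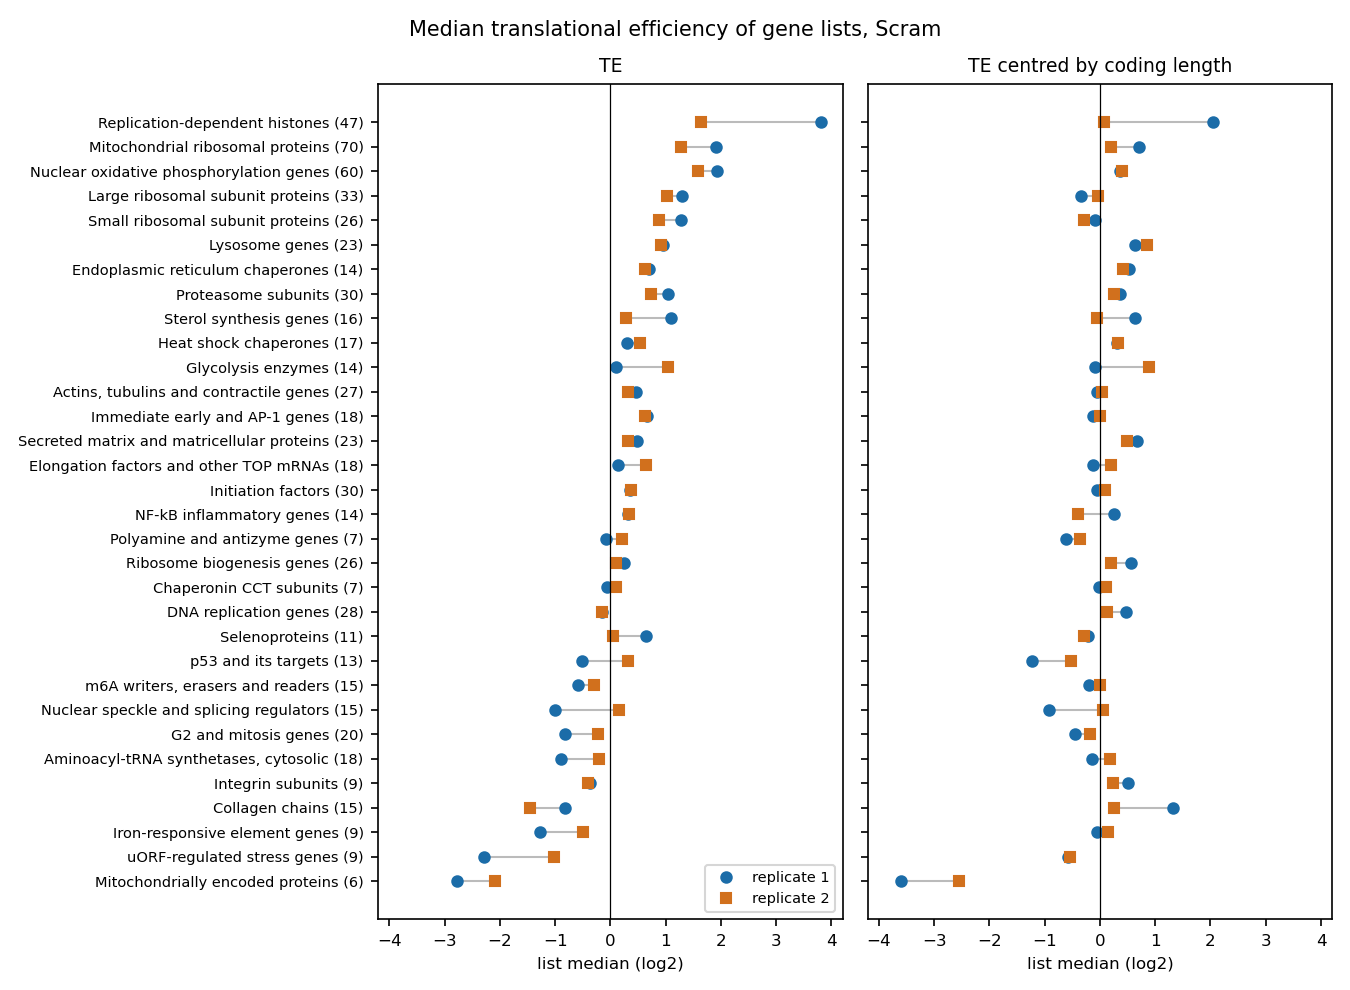
Median TE (left) and length-centred TE (right) of 32 gene lists, in log2 units, in replicate 1 (circles) and replicate 2 (squares), with the number of members in brackets and a grey line joining the replicates. Histones are at 3.82 and 1.64 on the left and 2.04 and 0.07 on the right, and collagens move from below 0 to above it, while mitochondrially encoded mRNAs stay lowest in both panels.

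Of 20 G2 and mitosis genes 8 were called below and 0 above, Mki67 lowest and Bub3, a spindle checkpoint protein, highest at 1.07 and 0.83. Length-centred, that list's median was -0.44 and -0.19, with 0 called by limma. DNA replication genes had 6 of 28 called above (21.4%, against 17.8% of all members) and 4 below (14.3%, against 16.9%), from Gins2, of the replicative helicase, at 3.48 and 3.27 to Pole, the large polymerase subunit, at -2.52 and -2.37. Length-centred, Pole stood at 0.23 and -0.02, and Gins2 was still called above at 1.85 and 2.05. Hmga2, a chromatin architecture factor of growing fibroblasts, had 153 and 132 footprint RPKM against 37.6 and 12.1 RNA RPKM, a TE of 1.11 and 1.76 (adjusted p = 0.0115), and was not called length-centred, at -1.04 and 0.14. The ornithine decarboxylase Odc1 was the 1 of 7 polyamine genes called (14.3%, against 16.9% of all members called below), at -1.45 and -0.70.

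The order of TE was seen again in the library pairs of the other groups, which share no library with Scram. TE fell with coding length in these pairs too (Spearman's rho from -0.76 to -0.64), and the Scram calls differ strongly by coding length. Part of the agreement in sign therefore follows from coding length alone. Whether the order is shared beyond coding length was not tested, because length-centred TE was not compared with these pairs. All members listed in a pair split about evenly around its median transcript. Of the Scram transcripts called above and listed there, 97.4% to 98.6% were above the median transcript in the 4 knockdown pairs and 94.5% in Torin1; of those called below, 98.5% to 99.2% and 97.6% were below. Pearson's r across transcripts with the Scram pair of the same replicate number was 0.88 and 0.89 in METTL3 knockdown and 0.88 and 0.87 in ABCF1 knockdown, and across different numbers it was 0.71 to 0.74. Torin1, 1 library per assay, gave 0.66 with replicate 1 and 0.86 with replicate 2, and its files share the listing of replicate 2. Ndufa11 had a TE of 3.46 to 4.59 in the 5 other pairs, Serbp1 of 3.61 to 4.25, and Dync1h1 of -5.72 to -3.66. Fth1 was at -2.09 to -1.18 and Pabpc1 at -5.17 to -2.47.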

How the data were processed

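The authors deposited 1 RPKM value per Ensembl transcript and library; cutadapt, Bowtie and the build GRCm38 are named in the submitters' processing notes. Tool versions, annotation and the handling of multiply mapped reads: not given in the sources used here. RPKM times GENCODE M21 length gave whole reads, within 0.02, for 98.7% to 98.8% of Scram footprint values over coding length and, over the full transcript, for 80.5% to 85.4% in RNA-seq, which gives the depth; 8631 of 8646 members matched M21. TE had no pseudocount. The intercept of the 2 TE values was tested with limma 3.58.1 (R 4.3.3; eBayes with trend; 1 residual degree of freedom, prior median 11.0), with Benjamini-Hochberg adjustment. The replicate number pairs the assays by the definition of TE; the differences between replicates correlated at 0.67 between assays across transcripts. In simulated data limma recovered 84% of transcripts at a log2 TE of 2 and 99% at 4, with 14 false among 197 calls. There only a small share of transcripts was set off 0, with independent noise and no trend with coding length. The real data differ in these points, so the simulated rates do not carry over to the calls made here.

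The named transcripts are the 12 highest and 12 lowest with a mean RPKM of at least 10 and 1 sign, the extremes of each list and a set of known genes; other members were named after their values were seen. The members and lists were chosen with earlier results of these data known. Ppp1r15a, Azin1 and Myc were not listed in all 4 libraries. No list was tested as a set. The alternatives tried were the pairing, a spread shared with the knockdown pairs, a pseudocount of 1, a mean RPKM of at least 5, at least 20 reads per assay, quantile normalization, no centring, no variance trend and each replicate left out. Chosen after seeing the data were centring by coding length, a read ratio without length and genes with 1 listed transcript.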

Additional observations from a re-analysis of the deposited data

Results flagged for a closer look

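In Torin1, with 1 library per assay, several list medians lay on the other side of the median transcript from both Scram replicates; the difference was not tested for any of them. Large ribosomal subunit proteins had a median TE of -0.99 in Torin1 against 1.29 and 1.02 in Scram. Small ribosomal subunit proteins had -1.06 against 1.27 and 0.89, and elongation factors and other terminal oligopyrimidine mRNAs had -0.70 against 0.14 and 0.64. Actins, tubulins and contractile genes had -0.15 against 0.46 and 0.31. Initiation factors had -0.0092 against 0.35 and 0.38.

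DNA replication genes had medians of -0.16 and -0.15 in the Scram replicates, 0.0072 in Torin1, and 0.11 and 0.14 in the replicates of ABCF1 knockdown; these differences were not tested either.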

How the results depend on the processing

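Of 1540 transcripts called above and 1465 below, the counts without the replicate pairing (no replicate block) were 186 and 151, without centring 3865 and 159, and centred by coding length 36 and 65. Leaving out 1 replicate gave 0 to 468 above and 0 to 491 below, each fitted on 1 Scram value with the spread of the knockdown pairs. All other alternatives stayed within 1.5 times, from 1105 to 1855 above and from 1055 to 1795 below, some over fewer transcripts. Of 104 named transcripts, 27 lost their call without the block, and centred by length 38 lost it and a further 5 were no longer called and changed sign.

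Among called transcripts, and lists whose median has 1 sign in both replicates, signs changed under 3 alternatives. Centred by coding length, the list median or mean TE became -0.16 for large and -0.41 for small ribosomal proteins, -0.026 for other terminal oligopyrimidine mRNAs, 0.82 for collagens, -0.17 for immediate early genes, 0.65 for integrins, -0.041 for Tpt1, -0.45 for Hmga2, 0.56 for Col12a1, -0.064 for Selenok and 0.10 for Pole. Without centring it was 0.17 for collagens, 0.75 for aminoacyl-tRNA synthetases, 0.17 for iron-responsive element genes, 0.82 for G2 and mitosis genes, 0.91 for m6A genes, 0.74 for integrins, 0.22 for Odc1 and 0.18 for Hsph1. As a read ratio it was 0.036 for aminoacyl-tRNA synthetases and -0.76 for Hmga2. In 6 further lists, where the replicates differ in sign or the median is near 0, the sign also changed under 1 to 5 alternatives: CCT subunits from 0.067 to -0.057, DNA replication genes from 0.035 to as low as -0.16, polyamine genes from 0.28 to as low as -0.95, splicing regulators from -0.39 to as high as 0.91, selenoproteins from -0.010 to as high as 1.29, and p53 targets from -0.17 to as high as 1.13. The cause was not tested. Depth limits members of few reads: 524 had under 20 in an assay or, lacking a known length, no read count.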

Other observations

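Immediate early genes had 6 of 18 called above and 0 below by limma, led by Ier3, a stress-response gene, at 2.76 and 1.78, while Fos and Fosb were at -4.45 and -4.28 in replicate 1 and at 0.96 and 0.38 in replicate 2. Fos RNA was 57.2 RPKM in replicate 1 and 4.12 in replicate 2, and its footprints were 4.94 and 25.6. Of 14 inflammatory genes of the NF-kB pathway 5 were called above (35.7%, against 17.8% of all members) and 1 below (7.14%, against 16.9%). Sod2, the mitochondrial superoxide dismutase, was highest at 3.14 and 1.85 and Nfkb1 lowest at -1.31 and -2.46. Among 14 glycolysis genes 5 were above and 0 below, and the list median was 0.11 in replicate 1 and 1.05 in replicate 2. Length-centred, 0 members of these 3 lists were called by limma, with medians of -0.13 and 0.0002 for immediate early, 0.26 and -0.40 for NF-kB and -0.085 and 0.89 for glycolysis genes.

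Selenoproteins had 5 of 11 called above and 0 below, Selenok highest at 1.79 and 1.84, and Gpx4, which protects membrane lipids, changed sign at 0.64 and -0.66. Length-centred, the selenoprotein median was -0.22 and -0.28, and 1 member, Selenow, was called, below at -2.46 and -1.68. Cytosolic aminoacyl-tRNA synthetases had 5 of 18 called below (27.8%, against 16.9% of all members) and 0 above, with Eprs the lowest. Sterol synthesis genes had 2 of 16 called above (12.5%), under the 17.8% of all members. Length-centred 0 of either list were called by limma. Srrm2, a nuclear speckle scaffold of 8112 coding bases, was the lowest of the splicing regulators at -3.66 and -3.36, and Srsf3, a small splicing factor, the highest at 1.22 and 2.41. Heat shock chaperones had Hspb1 at 5.52 and 1.15 and Hsph1 at -1.16 and -1.08 as their extremes. Lars2, which is no member, was listed at 35.4% of the assigned RNA reads of replicate 2 and was not listed in RNA-seq of replicate 1.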
